A study of Mus musculus with 32 samples.

Results

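Gene expression was followed from embryonic day E14.5 to E16.5 in Taf4b-deficient prospermatogonia, which are germ cells of the fetal testis before their entry into spermatogenesis. All libraries labelled Taf4b-deficient were used: 4 from E14.5 and 8 from E16.5, so 12 of the 32 libraries of the series. The series also holds 4 wildtype libraries from E14.5 and 7 from E16.5, which served as the comparison, and 9 E16.5 libraries of Taf4b-heterozygous embryos, which entered the fit only through the shared estimate of the spread. Per the labels, every embryo was C57BL/6 and male, and came from parents homozygous for an Oct4-EGFP transgene (B6;129S4-Pou5f1tm2Jae/J, a green fluorescent protein reporter of Pou5f1, also called Oct4) and heterozygous for the Taf4b-deficiency mutation. Gonads were dissociated with trypsin, dead cells were discarded, cells were sorted on the GFP signal, and total RNA was taken. The wildtype and deficient embryos thus share the reporter, the mating scheme and the sort, and the labels name no Cre driver or cell type that would limit the deficiency to germ cells. The deficient embryos were taken from 3 litters at E14.5 and 4 different ones at E16.5, and age and collection cannot be told apart. The labels do not say that each library is 1 embryo, and p-values then measure the spread between these samples.

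TAF4B is a variant subunit of TFIID, the general transcription factor that brings RNA polymerase II to core promoters, and it is enriched in germ cells. In the fetal mouse testis, germ cells between these ages leave the mitotic cycle and enter arrest, shut down a pluripotency programme that includes Nodal signalling, and begin to rebuild DNA methylation. The rebuilding uses the de novo DNA methyltransferases, the cofactor DNMT3L and small piRNAs that guide methylation to transposons. The comparison asks which of these steps still took place without Taf4b, and how large they were.

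Taf4b itself (ENSMUSG00000054321) was low in the deficient libraries at both ages. Its level, in CPM (read counts adjusted for the size of each library), was 27.6, 30.4, 53.7 and 43.3 CPM in the E14.5 deficient replicates 1 to 4, and 46.2 to 123 CPM (median 56.8) in the E16.5 deficient libraries. The E14.5 wildtype libraries held 162 to 296 CPM and the E16.5 wildtype libraries 113 to 291 CPM. The library labelled E16.5 deficient replicate 8 supplied the 123 CPM, inside the E16.5 wildtype range, and the other 7 reached at most 62.5 CPM. Between the ages the deficient libraries overlapped, and the mean log2(CPM + 1) was 0.65 higher at E16.5 (two-sided exact permutation test over 495 assignments, p = 0.0263). Without replicate 8 the p was 0.0182, and without E14.5 replicate 1 it was 0.133.

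The sort was checked on marker lists of other testis cells. E14.5 deficient replicate 1 stood apart from replicates 2 to 4: its summed Leydig cell markers (9 genes of steroid-producing cells) reached 5620 CPM against at most 192 in the other 3, and its interstitial and mesenchymal markers (15 genes) 5570 against at most 256. Cyp17a1, a steroid hydroxylase of Leydig cells, stood at 2220, 65.1, 10.6 and 9.25 CPM in the 4 libraries, and the collagen gene Col1a1 at 467, 3.43, 0.694 and 0.43 CPM. The change of Cyp17a1 with age was -1.72 with all libraries and 2.43 in the 10-library set described next, and that of Col1a1 -3.65 and 2.35. The summed germ cell list of that library was 6000 CPM, below every other deficient library. Red blood cell markers were also high there (2200 CPM against at most 10.5 CPM) and in E16.5 replicate 1 (4200 CPM, against a lowest E16.5 value of 44.1). In the 8 E16.5 deficient libraries the Leydig sum ran from 101 to 1360 CPM, the interstitial sum from 139 to 236 and the Sertoli sum from 85.3 to 319. Results are therefore given for all 12 libraries and again without E14.5 replicate 1 and E16.5 replicate 8 together, called the 10-library set here. Library totals were 28.3 to 43.9 M (mega) counts at E14.5 and 17.7 to 22.2 M at E16.5, while the genes with at least 1 count numbered 26821 to 29355 at E14.5 and 33550 to 41403 at E16.5. The share of counts from mitochondrially encoded protein genes was 1.33 to 1.72% at E14.5 and 2.21 to 3.54% at E16.5. More genes were thus detected in the shallower libraries, and the part of this in the results was not tested. Rn7sk, a non-coding RNA without a poly(A) tail, also differed between the ages. In CPM of the unscaled library total it stood at 2.54 to 7.745 in the E14.5 and 13.1 to 41.4 in the E16.5 deficient libraries. Its part in the age change was not tested.

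**Figure D1:**
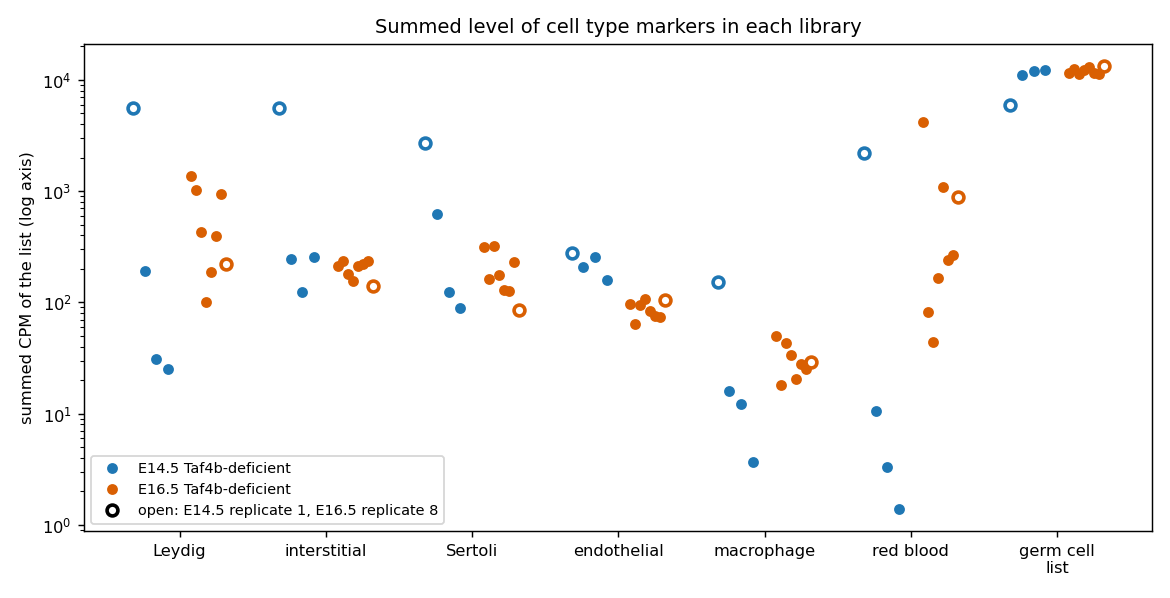
Summed CPM (log axis) of the marker list of each cell type in every deficient library, with E14.5 and E16.5 side by side and open symbols for E14.5 replicate 1 and E16.5 replicate 8. E14.5 replicate 1 lies far above the other 3 E14.5 libraries for Leydig (5620 CPM) and interstitial markers (5570 CPM) and lowest for the germ cell list (6000 CPM).

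Most measured genes differed in level between the ages without Taf4b. Of 27099 genes tested with edgeR's quasi-likelihood test, 18674 (68.9%) had a Benjamini-Hochberg adjusted p under 0.05, of which 10890 (40.2%) had the higher and 7784 (28.7%) the lower level at E16.5. The median over all genes was 0.34 higher on the log2 scale (0.66 in the 10-library set). All log2 changes from here on are relative to that median gene, with their standard error, while adjusted p-values are for the change before the median was subtracted. With scaling factors shifted so that the median change was near 0, the calls were 9127 higher and 9807 lower, a higher share of 48.2% against 58.3%. Hereafter a gene "rose" or "fell" if it was called and also lay at least 1 log2 unit from the median gene. By that rule 15046 genes passed (55.5%): 8614 rose (31.8%) and 6432 fell (23.7%). These shares are over all genes, and those of protein-coding genes, given next, are the closer background for the gene lists. In the 10-library set 9379 rose and 7150 fell, and they included 87.5% of the 8614 and 85% of the 6432. Between the deficient groups, 9654 of the 27099 genes (35.6%) had no overlap.

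The genes that rose were mostly of low abundance. Of 18092 protein-coding genes 24.7% rose and 31.2% fell, with a median of -0.43, and most list members are of this class. Of 4075 lncRNA genes 52.9% rose and 6.06% fell, with a median of 1.29. The protein-coding genes that rose had a median average log2 CPM of 0.261, against 4.88 for those that fell and 4.26 for the rest.  RNA from a bulk sort cannot tell fewer cells of a type from less RNA per cell.

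Dnmt3l, Dnmt3a and Dnmt3c rose, while the maintenance genes Dnmt1 and Uhrf1 fell. Dnmt3l, the cofactor of the de novo methyltransferases (GRCm38 chromosome 10, 78041947 to 78063622), stood at 6.57, 1.59, 0.892 and 2.19 CPM in the E14.5 replicates and at 48.1 to 311 CPM (median 171) in the E16.5 libraries. The lowest E16.5 library was well above the highest E14.5 library. The fold of the mean CPM was 62.6, and the log2 change was 5.58 ± 0.81 (edgeR adjusted p 2.27e-07). Dnmt3a, a de novo methyltransferase, rose from 258, 192, 128 and 192 CPM to between 377 and 681 CPM (median 533), by 1.05 ± 0.19 (adjusted p 2.59e-07). In the 10-library set its change was 0.81, under the 1 log2 unit asked. Dnmt3c, the rodent paralogue that methylates young transposons, rose from 2.21, 3.19, 8.28 and 2.93 CPM to between 10.8 and 38 CPM (median 22, change 2.15 ± 0.37, adjusted p 8.36e-07). Both genes had groups that did not overlap. Dnmt3b, the other de novo enzyme, overlapped between ages at 30.5, 18, 38.3 and 22.4 CPM and 23.5 to 40.5 CPM (median 34.1) and did not pass the test (adjusted p 0.274). Per unit length, in mean TPM (transcript abundance scaled by length and to a common total) over the E16.5 deficient libraries, Dnmt3l (176 TPM) and Dnmt3a (154 TPM) stood above Dnmt3b (13.9 TPM) and Dnmt3c (13.5 TPM).

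Dnmt1, the maintenance methyltransferase, fell from 309, 783, 505 and 652 CPM to between 140 and 198 CPM (median 153, change -2.17 ± 0.16, adjusted p 8.17e-11). Its partner Uhrf1, which recognises hemimethylated DNA, fell from 143, 168, 120 and 158 CPM to between 27.1 and 71.9 CPM (median 60.6, change -1.77 ± 0.22, adjusted p 1.29e-06). Neither gene overlapped between the ages. Tet1, which oxidises methylcytosine, fell by 2.55 (adjusted p 1.59e-05), while its libraries overlapped at 147, 456, 338 and 493 CPM against 19.3 to 158 CPM (median 62). Over the 18 genes of the DNA methylation list 6 rose and 8 fell, against 24.7% and 31.2% of protein-coding genes, with a median of -0.23.

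Several genes of the piRNA pathway that acts on transposon methylation rose. They were named one by one for their role with the results known, not counted or tested as a list. Members that did not rise were not sought, so a rise of the pathway as a whole cannot be read from them. Piwil4, which encodes the nuclear Piwi protein MIWI2, rose from 36.7, 20.9, 8.38 and 25.4 CPM to between 168 and 484 CPM (median 331), by 3.52 ± 0.48 (adjusted p 5.13e-08). Spocd1, which encodes a MIWI2-associated protein needed for transposon methylation, rose from 15, 5.7, 0.793 and 5.59 CPM to between 141 and 709 CPM (median 317), by 5.40 ± 0.86 (adjusted p 1.03e-06). Tdrd9, a Tudor-domain helicase that works with MIWI2, rose from 37.2, 20.6, 9.52 and 28.3 CPM to between 210 and 788 CPM (median 457), by 3.95 ± 0.49 (adjusted p 1.2e-08). In all 3 genes every E16.5 library exceeded every E14.5 library. Morc1, a transposon-silencing ATPase, rose by 2.25 ± 0.36 (adjusted p 3.4e-07), Tex15, another factor of piRNA-guided silencing, by 2.19 ± 0.38 (adjusted p 9.41e-07), and Henmt1, the piRNA 3′ end methyltransferase, by 2.57 ± 0.38 (adjusted p 1.23e-07). Gtsf1, a Piwi partner, rose from 69.8, 27.4, 10.2 and 48.2 CPM to between 192 and 323 CPM (median 274, change 2.44 ± 0.47, adjusted p 5.68e-06). Mael, a piRNA biogenesis factor that was already abundant at E14.5, rose from 384, 366, 397 and 488 CPM to between 1160 and 1550 CPM (median 1350, change 1.38 ± 0.17, adjusted p 1.03e-09). Per unit length at E16.5, Mael was the highest of those compared (1360 TPM), with Morc1 at 234, Piwil4 at 172, Spocd1 at 168 and Tdrd9 at 160 TPM. In the 10-library set Piwil4, Spocd1, Tdrd9 and Mael changed by 3.46, 5.62, 3.85 and 1.05.

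Sohlh1, which encodes a bHLH transcription factor of spermatogonia, was among the steepest rises. Its level was 4.43, 0.916, 0.644 and 0.861 CPM at E14.5 and 28.2 to 150 CPM (median 83) at E16.5, with no overlap, a change of 5.18 ± 0.70 (adjusted p 6.1e-08). The promoters of Sohlh1 and Tdrd9 are shown because both genes rose steeply and their windows hold repeated copies of the E-box CACGTG, which is its own reverse complement. In RefSeq promoter windows (GRCm38.p6, 250 bases before to 50 after a start), 7.24% of 27025 promoters hold at least 1 CACGTG. Shares with repeated copies or among rising genes were not counted. A link of the motif to the rise was not tested. The stretch of Sohlh1 is chr2:25847428-25847488 on the minus strand, 240 to 180 bases before the start, and that of Tdrd9 is chr12:111971389-111971478 on the plus strand, 170 to 81 bases before the start. Capitals mark CACGTG, with 3 copies in the first and 2 in the second.
Sohlh1: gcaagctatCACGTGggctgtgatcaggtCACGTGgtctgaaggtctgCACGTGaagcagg
Tdrd9: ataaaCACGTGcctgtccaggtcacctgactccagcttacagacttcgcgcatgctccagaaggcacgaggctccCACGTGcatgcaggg

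**Figure D2:**
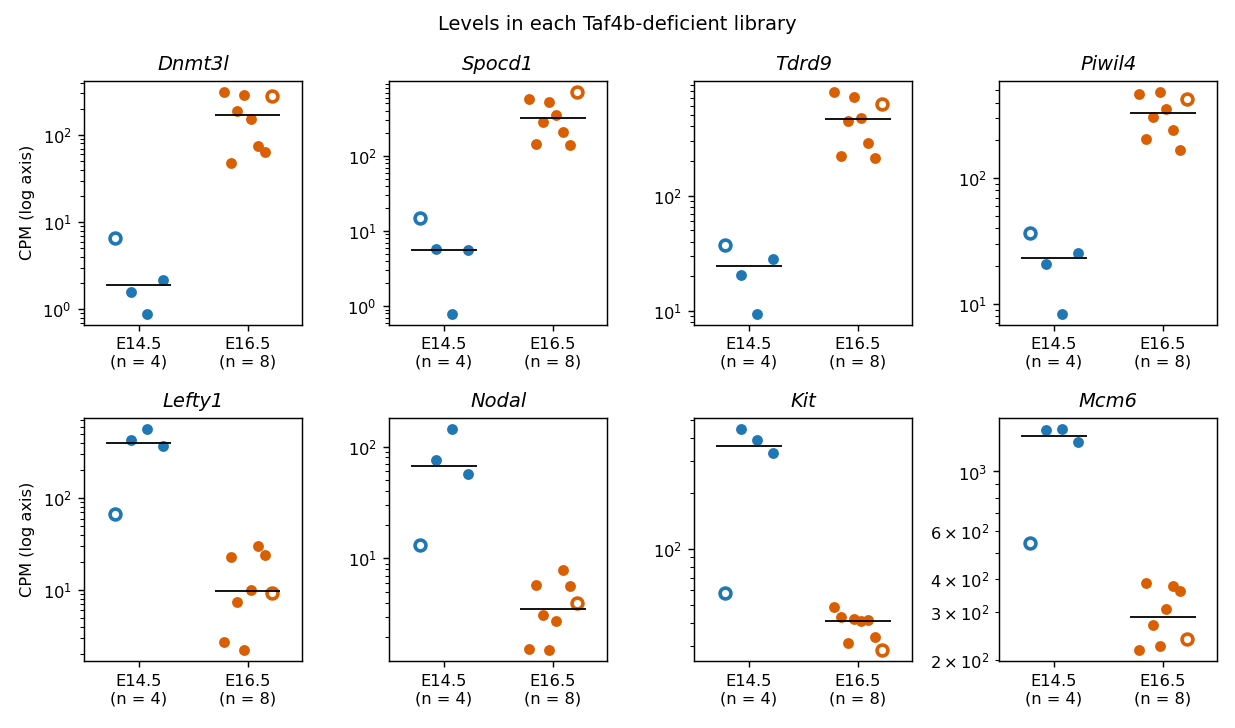
CPM (log axis) of representative genes in every deficient library, E14.5 and E16.5, 1 point per library, with the group median as a line and open symbols for E14.5 replicate 1 and E16.5 replicate 8. Dnmt3l, Spocd1, Tdrd9 and Piwil4 are higher and Lefty1, Nodal, Kit and Mcm6 lower at E16.5, with no overlap between the groups.

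Of 35 germ cell identity genes tested, 11 rose and 8 fell, against 24.7% and 31.2% of protein-coding genes. The median was 0.29 (-0.19 in the 10-library set). Ddx4, which encodes the germ cell RNA helicase VASA, did not pass the test: it stood at 418, 808, 1090 and 922 CPM at E14.5 and 670 to 903 CPM (median 817) at E16.5 with overlap (adjusted p 0.995). Dazl, an RNA-binding regulator of germ cell differentiation, fell from 945, 2520, 2990 and 2600 CPM to between 451 and 1450 CPM (median 944, change -1.63 ± 0.23, adjusted p 1.21e-05). The Dazl groups overlapped only through E14.5 replicate 1. Nanos2, an RNA-binding protein of the male fate, did not pass the test, at 26, 19.1, 6.49 and 25 CPM against 4.42 to 55.1 CPM (median 32.9, adjusted p 0.231). Its E16.5 spread covered every E14.5 value. Among the 8 that fell were Kit, Prdm1, Prdm14 and Tfap2c, which are known from primordial germ cells. Kit, the receptor for stem cell factor, went from 58, 447, 390 and 329 CPM to between 28.3 and 48.4 CPM (median 40.9, change -3.33 ± 0.28, adjusted p 3.67e-10), and Prdm1, a repressor that specifies germ cells, from 52.4, 210, 150 and 208 CPM to between 19.9 and 38.4 CPM (median 24.2, change -2.89 ± 0.22, adjusted p 6.65e-11). Both were separated between the ages. The germ cell specification factor genes Prdm14 and Tfap2c fell by 3.14 and 2.95 (adjusted p 3.62e-07 and 4.18e-08).

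Most of the pluripotency genes tested fell. Of 22 genes tested 0 rose and 14 fell, against 24.7% and 31.2% of protein-coding genes. The median was -2.07 (-2.67 in the 10-library set and -3.09 between the wildtype groups). Nanog fell from 29.3, 142, 181 and 108 CPM to between 1.92 and 34.2 CPM (median 11.3, change -3.22 ± 0.49, adjusted p 7.88e-06), and its groups overlapped only through E14.5 replicate 1, whose level was the lowest of the 4. Sox2, a partner of OCT4, fell from 21.6, 25.8, 73.9 and 36.4 CPM to between 1.25 and 20.7 CPM (median 9.69, change -2.35 ± 0.51, adjusted p 0.000976). Dppa5a, a marker of pluripotent cells, fell from 518, 1440, 2340 and 1280 CPM to between 27.5 and 346 CPM (median 135, change -3.31 ± 0.50, adjusted p 7.24e-06). Neither Sox2 nor Dppa5a overlapped. Pou5f1, whose control elements drive the reporter used for the sort, fell from 55.2, 195, 161 and 176 CPM to between 24.2 and 70.4 CPM (median 54.7, change -1.90 ± 0.26, adjusted p 5.49e-06), and the ages overlapped only through E14.5 replicate 1. Dppa4, another pluripotency-associated gene, differed the other way, at 329, 392, 412 and 475 CPM against 615 to 901 CPM (median 815) with no overlap, but its change of 0.65 ± 0.16 did not reach 1 log2 unit. Lin28a, an RNA-binding protein that blocks let-7 maturation, did not pass the test (adjusted p 0.88).

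Most genes of the Nodal and FGF signalling list fell at the RNA level. Of 23 genes 0 rose and 17 fell, against 24.7% and 31.2% of protein-coding genes. The median was -2.49 (-2.68 in the 10-library set, where 1 rose and 19 fell). Nodal, the ligand, went from 13.2, 75.5, 144 and 57.2 CPM to between 1.51 and 7.92 CPM (median 3.57, change -4.50 ± 0.42, adjusted p 1.22e-09), a fold of 17.9 of the means. Its coreceptor Tdgf1 (CRIPTO) went from 2.88, 19.8, 48 and 13.4 CPM to between 0.393 and 2.3 CPM (median 0.716, change -4.69 ± 0.52, adjusted p 1.89e-08). Both genes had no overlap between the ages. The feedback inhibitors and target genes Lefty1 and Lefty2 fell furthest among them. Lefty1 went from 67.7, 431, 567 and 369 CPM to between 2.21 and 29.9 CPM (median 9.65, change -5.07 ± 0.54, adjusted p 1.11e-08). Lefty2 went from 129, 654, 1360 and 535 CPM to between 3.59 and 46.7 CPM (median 13.5, change -5.27 ± 0.61, adjusted p 3.93e-08). In both, the E16.5 maximum lay below E14.5 replicate 1, itself the lowest E14.5 library. Foxh1, the SMAD partner, fell by 4.85 (adjusted p 2.81e-08).

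Acvr2b, Smad2 and Smad4 had smaller changes than Nodal, Tdgf1, Lefty1 and Lefty2. Acvr2b, a type II activin receptor, fell by 1.48 and Smad2 by 1.43 (adjusted p 2.28e-05 and 6.56e-08), and Smad4, the common SMAD, did not pass the test at 53.9, 30.2, 47.1 and 40.9 CPM against 40.1 to 63.3 CPM (median 52.7, adjusted p 0.298). On the FGF side, the receptor gene Fgfr2 fell from 77.7, 115, 141 and 122 CPM to between 5.97 and 18.1 CPM (median 11.9, change -3.54 ± 0.25, adjusted p 9.44e-12). The FGF-responsive transcription factor gene Etv5 went from 189, 486, 575 and 507 CPM to between 19.5 and 204 CPM (median 88.5, change -2.49 ± 0.39, adjusted p 1.89e-05), overlapping only through E14.5 replicate 1. Dusp6 and Dusp4, phosphatases that restrain ERK signalling, fell by 2.83 and 4.42 (adjusted p 1.28e-07 and 6.7e-08).

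**Figure D3:**
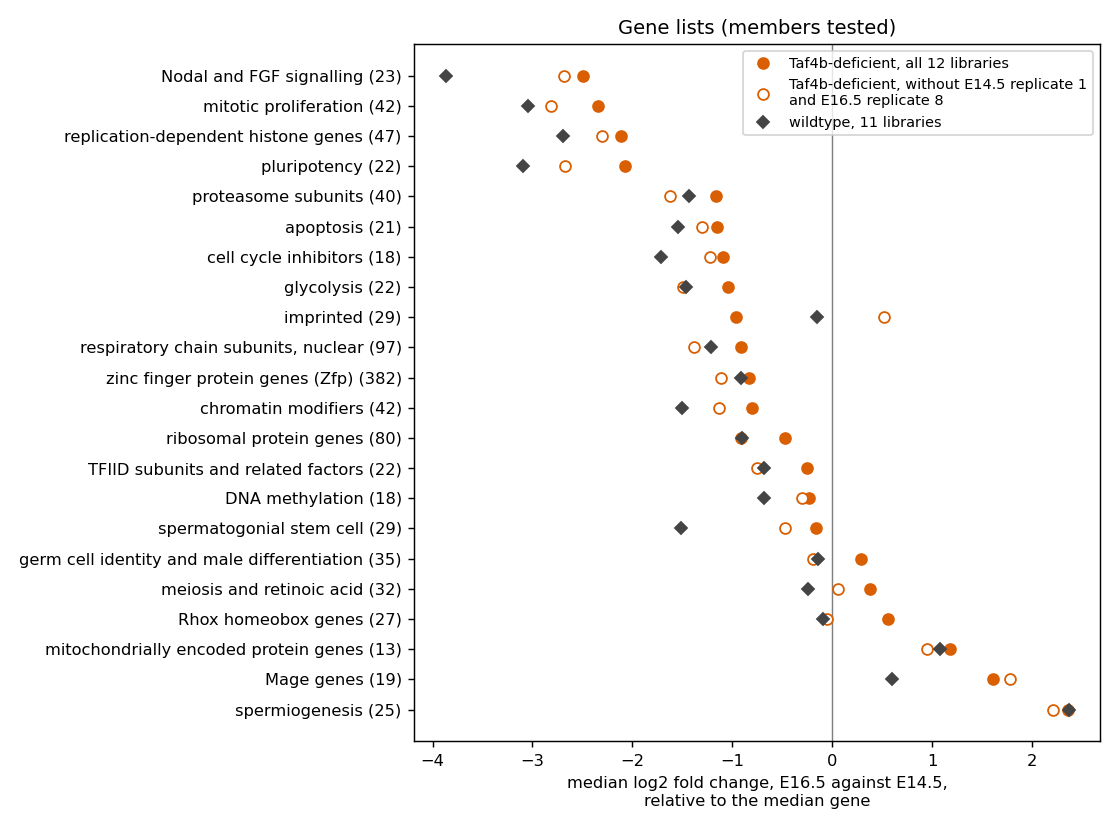
Median log2 change relative to the median gene for each gene list other than the cell type markers, in deficient libraries (all 12 filled, the 10-library set open) and in the 11 wildtype libraries (diamonds). The Nodal list has a median of -2.49 and the proliferation list of -2.34 with all deficient libraries, and the imprinted list moves from -0.97 to 0.51 between the deficient sets.

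Mitotic genes fell almost without exception. Of 42 tested, 0 rose and 40 fell, against 24.7% and 31.2% of protein-coding genes. The median was -2.34 (-2.81 in the 10-library set and -3.04 in wildtype). The 2 others were Cdk6, a G1 kinase, which did not pass the test (adjusted p 0.25), and Cenpe, a kinetochore motor, which was called lower but by 0.89. Mki67, the proliferation marker, fell from 150, 225, 134 and 181 CPM to between 13.7 and 40.1 CPM (median 21.1, change -3.22 ± 0.28, adjusted p 6.26e-10). Cdk1, the mitotic kinase, fell from 218, 325, 374 and 268 CPM to between 22.3 and 80.9 CPM (median 48.5, change -2.93 ± 0.27, adjusted p 1.85e-09). Mcm6, a subunit of the replicative helicase, fell from 541, 1420, 1440 and 1290 CPM to between 217 and 385 CPM (median 288, change -2.32 ± 0.18, adjusted p 1.93e-10). None of the 3 overlapped between ages. The messages did not disappear: at E16.5 the lowest library still held 217 CPM of Mcm6 and 194 CPM of Top2a, the topoisomerase of mitotic chromosomes. Mycn, a growth regulator, went from 108, 307, 347 and 274 CPM to between 3.98 and 45.6 CPM (median 21, change -3.75 ± 0.42, adjusted p 4.71e-08).

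Ccnd2, a D-type cyclin, shows the reach of E14.5 replicate 1. Its level was 218, 23.3, 8.68 and 12 CPM at E14.5 and 13.8 to 54.2 CPM (median 25.2) at E16.5, and its change of -1.48 ± 0.50 (adjusted p 0.0407) became 0.45 in the 10-library set. Myc was also highest there, at 22.6, 3.03, 0.694 and 0.387 CPM against 0.254 to 1.69 CPM (median 0.964), and its change of -3.22 ± 0.57 became -1.13. The Leydig and interstitial marker sums are highest in that library too, and their part in these 2 genes was not tested.

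The promoters of 34 of the 42 proliferation genes could be matched by symbol in the RefSeq windows. The CCAAT box (CCAAT or its complement ATTGG) was in 24 of them (70.6%) against 37.9% of all 27025 promoters. The E2F-type motif TTTCGCGC or TTTGGCGC, on either strand, was in 8 (23.5%) against 0.833%. The cell cycle homology element TTTGAA, on either strand, was in 13 (38.2%) against 18.1%. CACGTG was in 3 (8.82%). Cdk1 and Mcm6 are shown because both fell and their windows hold several of these motifs, marked in capitals. The stretches are chr10:69352913-69353052 on the minus strand, the 140 bases before the Cdk1 start, and chr1:128359706-128359825 on the minus strand, the 120 bases before the Mcm6 start. In Mcm6 the capital run TTTGGCGCGAAA holds 2 E2F-type motifs, 1 on each strand, that overlap.
Cdk1: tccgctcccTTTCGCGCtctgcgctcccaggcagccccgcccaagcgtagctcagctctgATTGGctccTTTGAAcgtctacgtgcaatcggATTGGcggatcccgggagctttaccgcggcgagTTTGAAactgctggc
Mcm6: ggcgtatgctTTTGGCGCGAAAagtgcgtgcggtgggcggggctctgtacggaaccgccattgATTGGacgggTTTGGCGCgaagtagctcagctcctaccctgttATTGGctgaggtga

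Inhibitors of the cell cycle had no member that rose at the RNA level. Of 18 tested 0 rose and 9 fell, against 24.7% and 31.2% of protein-coding genes, with a median of -1.09. Cdkn1a (p21) fell from 22.1, 45.6, 74.4 and 46.3 CPM to between 14.1 and 35.2 CPM (median 25.5, change -1.24 ± 0.26, adjusted p 0.00324), overlapping only through E14.5 replicate 1. Cdkn1b (p27) did not pass the test, at 4.36, 2.87, 0.545 and 4.52 CPM against 2.75 to 5.85 CPM (median 3.77, adjusted p 0.368). Trp53, the tumour suppressor gene p53, fell from 120, 251, 417 and 193 CPM to between 13.7 and 48.3 CPM (median 28.9, change -3.40 ± 0.30, adjusted p 4.86e-10) without overlap. Replication-dependent histone genes, whose transcripts mostly lack a poly(A) tail, fell in 27 and rose in 4 of 47 tested, with a median of -2.11. Most of these stood at a few CPM or less, and near-identical copies may share reads. The summed CPM of the 67 genes of this list overlapped between the ages. It was 207 to 324 (median 310) at E14.5 and 109 to 322 (median 236) at E16.5.

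Of 22 genes for other TFIID subunits and related factors 2 rose and 6 fell, against 24.7% and 31.2% of protein-coding genes. The median was -0.25 (-0.76 in the 10-library set, with 2 and 9). Taf7l, the germ cell paralogue of TAF7, rose from 23.9, 12.7, 12.8 and 23.3 CPM to between 75.1 and 99 CPM (median 93.6, change 1.98 ± 0.30, adjusted p 1e-07). Gtf2a1l, the germ cell form of a TFIIA subunit, rose from 0.541, 0.239, 0.347 and 0.559 CPM to between 3.6 and 11 CPM (median 7.1, change 3.68 ± 0.48, adjusted p 1.95e-08). Both of these paralogues had groups that did not overlap. Taf4, the paralogue of Taf4b, was at 6.96, 6.29, 9.52 and 5.77 CPM against 8.6 to 13.4 CPM (median 11.7), with overlapping groups. Its difference was called before the median was subtracted (0.67, adjusted p 0.00381), and it was 0.33 ± 0.20 relative to the median gene. Tbp, the TATA-binding subunit, did not pass the test at 107, 169, 180 and 186 CPM against 149 to 169 CPM (median 152, adjusted p 0.686). Among those that fell, Taf10 went from 90.5, 53.8, 166 and 81.1 CPM to between 10.2 and 55.9 CPM (median 22, change -2.19 ± 0.50, adjusted p 0.00174), overlapping through E14.5 replicate 2, and Taf12 fell by 1.21 (adjusted p 1.46e-05). The general factor gene Gtf2e1 fell by 1.76 (adjusted p 2.16e-07).

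Genes of the later spermatogonial stem cell included 9 rising and 10 falling of 29, against 24.7% and 31.2% of protein-coding genes, with a median of -0.16 (-0.47 in the 10-library set). Gfra1, the GDNF coreceptor, rose from 4.09, 1.12, 0.892 and 1.46 CPM to between 3.22 and 12.4 CPM (median 6.6, change 1.55 ± 0.42, adjusted p 0.000231). Zbtb16 (PLZF), a stem cell transcription factor, rose from 1.26, 0.757, 0.0991 and 2.67 CPM to between 2.86 and 5.98 CPM (median 3.97, change 1.48 ± 0.48, adjusted p 0.00144). Gfra1 overlapped between ages through E14.5 replicate 1 and Zbtb16 did not overlap. Rhox10, a homeobox gene of germ cells on the X chromosome, rose from 27, 10.8, 4.56 and 12.3 CPM to between 110 and 155 CPM (median 131, change 2.95 ± 0.44, adjusted p 1.93e-07). Id4 and Ret, the second a GDNF receptor, did not pass the test (adjusted p 0.725 and 0.661). Dmrt1, a male differentiation factor, fell from 52, 132, 129 and 129 CPM to between 25 and 65 CPM (median 43.2, change -1.66 ± 0.21, adjusted p 3.66e-06), with an overlap only through E14.5 replicate 1. Lhx1 fell by 3.35 (adjusted p 6.6e-07). Of the Rhox cluster 8 genes rose and 9 fell of 27 tested, against 24.7% and 31.2% of protein-coding genes. Some Rhox genes have near-identical copies that may share reads.

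Of 32 meiotic genes tested 8 rose and 6 fell, against 24.7% and 31.2% of protein-coding genes, with a median of 0.38 (0.05 in the 10-library set). Stra8, the retinoic acid target that starts meiosis, stood at 9.2, 3.98, 4.46 and 4.52 CPM against 8.17 to 16.8 CPM (median 13.9), called by the test (adjusted p 0.00367) but with a change of 0.88 ± 0.36. Tex12, a synaptonemal complex component, rose from 32.9, 28.4, 32.4 and 34 CPM to between 94.3 and 152 CPM (median 127, change 1.63 ± 0.20, adjusted p 7.48e-10), while Syce2, another, fell from 107, 261, 405 and 214 CPM to between 33.5 and 88.3 CPM (median 63.3, change -2.29 ± 0.24, adjusted p 5.27e-08). The 2 components of the same structure thus went in opposite directions. Mei1, a meiotic recombination factor, rose at low level, from 0.394, 0.398, 0.595 and 0.473 CPM to between 2.26 and 19.9 CPM (median 9.11, change 4.15 ± 0.51, adjusted p 8.99e-09).

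Of 25 spermiogenesis genes tested 15 rose and 4 fell, with a median of 2.36, at very low levels. Of all protein-coding genes 24.7% rose and 31.2% fell. Those that rose were mostly low: 12% had an average log2 CPM of at least 3, against 75.8% of those that fell. The share that rose among genes as low as this list was not counted, so the 15 cannot be read as particular to it. Acrv1, an acrosomal protein of spermatids, had 0 counts in all 4 E14.5 libraries and stood at 0.393 to 2.88 CPM (median 1.14) at E16.5. Against a floor of 3 counts per library it was at least 11.6-fold higher. Ldhc, the testis lactate dehydrogenase, was the clearer case, from 5.39, 4.82, 2.92 and 5.51 CPM to between 20.8 and 49.5 CPM (median 41.8, change 2.70 ± 0.29, adjusted p 3.91e-10), with no overlap. The summed CPM of the list did not follow the counts of risers: its median was 450 at E14.5 and 279 at E16.5. Of 19 Mage genes tested 11 rose and 4 fell, with a median of 1.61. The summed CPM of the Mage genes went down, from 1550 to 2500 (median 2060) at E14.5 to 971 to 1460 (median 1240) at E16.5.

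Of 42 chromatin modifier genes 18 fell and 4 rose, against 31.2% and 24.7% of protein-coding genes, with a median of -0.80 (-1.13 in the 10-library set). Hdac1, a histone deacetylase, fell from 198, 440, 593 and 432 CPM to between 66.6 and 123 CPM (median 92.3, change -2.47 ± 0.21, adjusted p 5.92e-10). Ezh2 and Suz12, core subunits of Polycomb complex PRC2, fell, Ezh2 by 1.96 (adjusted p 3.86e-10) and Suz12 from 60.1, 74, 125 and 86.9 CPM to between 23.1 and 46.5 CPM (median 36.5, adjusted p 1.29e-07). Those that rose included Kdm1b, a histone demethylase needed for imprints in the oocyte, from 55.4, 83.3, 64.7 and 96.5 CPM to between 128 and 757 CPM (median 343, change 2.06 ± 0.40, adjusted p 5.43e-06), and Brdt, the testis bromodomain protein, from 35.1, 27, 19.5 and 44.8 CPM to between 111 and 232 CPM (median 173, adjusted p 1.15e-09). Neither gene overlapped between the ages. Of 382 zinc finger genes with a Zfp symbol 150 fell and 17 rose, and their median was -0.83. Trim28, the corepressor that many such proteins recruit, fell by 1.18 (adjusted p 0.000173).

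The imprinted genes depended on which E14.5 libraries were used. With all 12 libraries 5 rose and 13 fell of 29, with a median of -0.97, and in the 10-library set 13 rose and 7 fell, with a median of 0.51. Over all genes tested 31.8% rose and 23.7% fell with all 12 libraries, and 33.6% and 25.6% in the 10-library set. Peg3 fell in both, from 803, 490, 295 and 376 CPM to between 50.7 and 135 CPM (median 80.7, change -2.80 ± 0.24, adjusted p 4e-10), as did Snrpn (-3.33 ± 0.43, adjusted p 5.09e-07). Dlk1 stood at 279, 4.82, 3.17 and 3.27 CPM at E14.5, so the one library with high somatic markers supplied nearly all of its E14.5 signal, and at 8.67 to 48.1 CPM (median 19) at E16.5. Its change was -2.07 ± 0.65 (adjusted p 0.0197) with all libraries and 1.85 in the 10-library set. Sgce went from -0.48 to 2.21 and Grb10 from -0.43 to 2.48 in the same way. Rasgrf1, a paternally expressed gene whose locus is a known target of piRNA-guided methylation in prospermatogonia, rose from near 0 (0.0984, 0.0398, 0 and 0.043 CPM) to between 2.7 and 13.6 CPM (median 7.29, change 6.72 ± 0.59, adjusted p 3.15e-11).

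Housekeeping groups differed from each other. Mitochondrially encoded protein genes rose in 8 of 13 and fell in 0, with a median of 1.18, while nuclear genes of the respiratory chain rose in 2 and fell in 46 of 97, with a median of -0.92 (-1.38 in the 10-library set). Proteasome subunits fell in 24 of 40 (median -1.16) and glycolysis genes in 11 of 22 (median -1.04), and ribosomal protein genes fell in 15 of 80 with a median of -0.48 (-0.92 in the 10-library set, with 37 falling). With all 12 libraries 24.7% of protein-coding genes rose and 31.2% fell, with a median of -0.43. The median of the ribosomal protein genes was thus close to that of all protein-coding genes. Of 21 apoptosis genes tested 2 rose and 13 fell (median -1.15). Bax, a pore-forming executor of cell death, fell from 106, 222, 301 and 210 CPM to between 38.1 and 89.8 CPM (median 64.1, change -2.04 ± 0.21, adjusted p 3.59e-08), and Mcl1, a survival factor, by 2.33 (adjusted p 8.13e-08). Hrk, a BH3-only activator, rose at low level from 0.0738, 0.438, 0.0991 and 0.043 CPM to between 0.492 and 3.94 CPM (median 1.49, change 3.10 ± 0.64, adjusted p 2.85e-05).

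Marker lists of other cells shifted with E14.5 replicate 1. Over all genes tested 31.8% rose and 23.7% fell with all 12 libraries, and 33.6% and 25.6% in the 10-library set. Interstitial markers fell in 13 of 15 with all libraries (median -3.84), and in the 10-library set 6 rose and 2 fell (median 0.77). Leydig markers had a median of -1.69 with all libraries and 2.40 in the 10-library set, where 7 of 9 rose. Endothelial markers had medians of -1.65 and 1.47, while their summed level was lower at E16.5 in both sets. That sum was 277 CPM in E14.5 replicate 1, 158 to 256 CPM in the other E14.5 libraries and 63.3 to 107 CPM at E16.5. Red blood cell markers had medians of 0.61 and 6.52, with 7 of 7 rising in the 10-library set alone. Sertoli markers fell in 13 of 16 with all libraries (median -2.64) and in 5 of 16 in the 10-library set (median -1.31). Amh, the Sertoli hormone, was at 51.9, 68.6, 1.83 and 6.24 CPM in the E14.5 replicates and 1.62 to 11.3 CPM (median 4.83) at E16.5.

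The 12 rising genes of at least moderate level with the largest changes were Nlrp4f, Dnmt3l, Spocd1, Sohlh1, Adtrp, Lim2, Tmc2, Sdcbp2, Dpep3, Crtam, Scd3 and Cfap43. Their log2 changes ran from 4.27 ± 0.42 for Cfap43, named for cilia and flagella, to 6.22 ± 0.67 for Nlrp4f, a member of the Nlrp family expressed in germ cells and embryos. Nlrp4f was at 0.64, 0.279, 0.248 and 0.301 CPM at E14.5 and at 16.2 to 61.5 CPM (median 40.6) at E16.5 (adjusted p 1.26e-09). Named by the same rule, 11 falling genes with the largest changes were Lefty2, Lefty1, Nodal, Igfbp3, Dusp4, Tdh, Ckb, Rrm2, Ap3b2, Id3 and Cdh3, from -5.27 ± 0.61 for Lefty2 to -4.05 ± 0.28 for Cdh3 (P-cadherin). Igfbp3 was at 364 CPM in E14.5 replicate 1, the library with high somatic markers, against 19.4 to 68.1 CPM in the other E14.5 replicates, so the size of its fall leans on that library. Ckb, the brain-type creatine kinase, went from 193, 605, 1070 and 492 CPM to between 11.4 and 77.7 CPM (median 28.9, change -4.25 ± 0.43, adjusted p 5.73e-09). Rrm2, the ribonucleotide reductase subunit of S phase, went from 111, 226, 414 and 160 CPM to between 4.94 and 25.1 CPM (median 16.3, change -4.22 ± 0.34, adjusted p 7.01e-11). All 12 rising and all 11 falling genes had groups that did not overlap, as had 51.6% of all called genes. They were chosen for large changes, so little can be read from this.

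The E16.5 libraries differed among themselves in these genes. Replicates 2, 6 and 7 were the 3 lowest of the 8 libraries for each of the 12 rising genes, with replicate 7 lowest for 8 genes and replicate 2 for 4. The same replicates were among the 3 highest for 11, 10 and 11 of the 11 falling genes. Replicates 6 and 7 shared a litter with replicates 5 and 8, and replicate 2 came from another, so libraries of 1 litter stood on both sides of this order. At E14.5, replicate 3 was lowest for 9 of the 12 rising and highest for 8 of the 11 falling genes. These genes were chosen for their change between the ages, and the order is a description. The summed level of the Leydig cell markers was 1020, 399 and 934 CPM in E16.5 replicates 2, 6 and 7, against 101 to 1360 CPM in the other 5, and its part in the order was not tested.

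**Figure D4:**
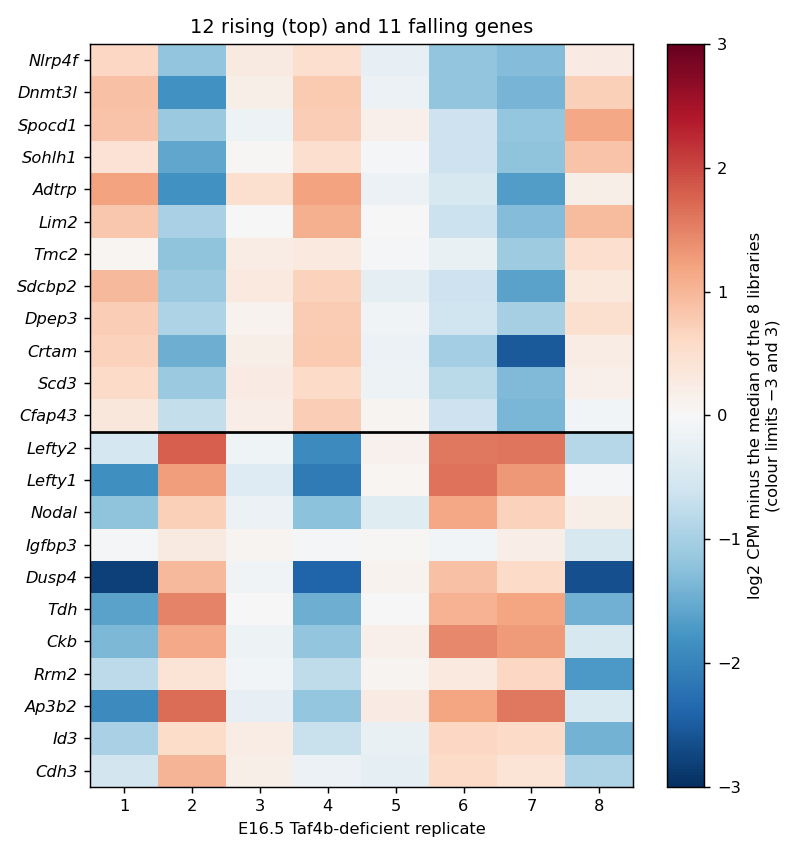
Log2 CPM minus the median of the 8 E16.5 deficient libraries (colour) for the 12 rising genes (top) and the 11 falling genes (bottom) named above, 1 column per replicate. Replicates 2, 6 and 7 are the lowest 3 in all 12 rising genes.

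Most genes called between the wildtype ages were called in the same direction in the deficient libraries. Between the wildtype groups 19802 of 27099 genes (73.1%) were called, 11985 (44.2%) higher and 7817 (28.8%) lower, and with the 1 log2 rule 9288 rose (34.3%) and 7467 fell (27.6%). Of the 11985, 9543 (79.6%) were called higher in the deficient libraries, where they made up 87.6% of the 10890, and 113 were called lower. Of the 7817, 6473 (82.8%) were called lower, 83.2% of the 7784, and 14 higher. Over all genes tested 40.2% were called higher and 28.7% lower in the deficient libraries. The 2 contrasts share no library, but both hold libraries of the same 2 litters at E14.5 and of the same 2 at E16.5, so what a litter or its collection adds can enter both. Both also share the difference between the ages in depth and genes detected. Wildtype totals were 33.5 to 44.1 M at E14.5 and 19.8 to 25.5 M at E16.5, with 27513 to 30959 and 35644 to 40594 genes detected. The part of this in the shared calls was not tested. All 12 rising and all 11 falling genes named above also rose or fell between the wildtype groups, and for 0 of the 23 was the difference of the change called, the smallest adjusted p being 0.0547. Without E14.5 wildtype replicate 1 the difference was called for 2 of the 23, Spocd1 and Ckb. The 23 were chosen for large changes in the deficient libraries, so a gene whose change was lost there could not be among them. Over all genes tested the difference was called for 2.06%, so little can be read from its absence in these 23.

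E14.5 wildtype replicate 1, a litter mate of E14.5 deficient replicate 1, stood apart from the other 3 E14.5 wildtype libraries. Dnmt3l was at 35.9 CPM there against 1.15 to 2.03 CPM in the others, Spocd1 at 79.6 against 1.39 to 4.36 CPM, and Sohlh1 at 13.3 against 0.358 to 1.44 CPM. Its summed CPM was 1370 for the Nodal and FGF list against 2580 to 3770, and 11900 for the proliferation list against 17200 to 21600. The wildtype change is therefore also given without it.

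With all 12 libraries, genes that rose in both genotypes had close medians, and genes that fell in both had smaller falls in the deficient libraries. For the genes that rose in both, the median was 3.21 in deficient and 3.18 in wildtype libraries. For the genes that fell in both, it was -1.63 in deficient and -2.14 in wildtype libraries, with 89% of these genes showing the smaller fall in the deficient libraries. In the 10-library set the medians were -1.88 and -2.02 and the share 65.8%. Without E14.5 wildtype replicate 1 the medians were 3.22 and 3.80 for genes that rose in both and -1.66 and -2.35 for genes that fell in both. Without both E14.5 libraries of that litter they were 3.38 and 3.68, and -1.88 and -2.17. Nodal fell by 4.50 in deficient and 5.25 in wildtype libraries, Nanog by 3.22 and 5.05, and Mki67 by 3.22 and 4.50. None of these differences was called by edgeR (adjusted p 0.661, 0.214 and 0.148). Without E14.5 deficient replicate 1, Nodal fell by 5.2 and 5.33, Nanog by 3.89 and 5.13, and Mki67 by 3.63 and 4.59. With all libraries Dnmt3l rose by 5.58 in deficient and 4.62 in wildtype libraries, and Piwil4 by 3.52 and 3.16. For these 2 genes the order turned without E14.5 wildtype replicate 1: Dnmt3l then rose by 5.52 in deficient and 7.12 in wildtype libraries, and Piwil4 by 3.46 and 4.41, with adjusted p-values of the difference of 0.0801 and 0.061. At E16.5 the mean level of Dnmt3l was 176 CPM in deficient and 368 CPM in wildtype libraries.

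**Figure D5:**
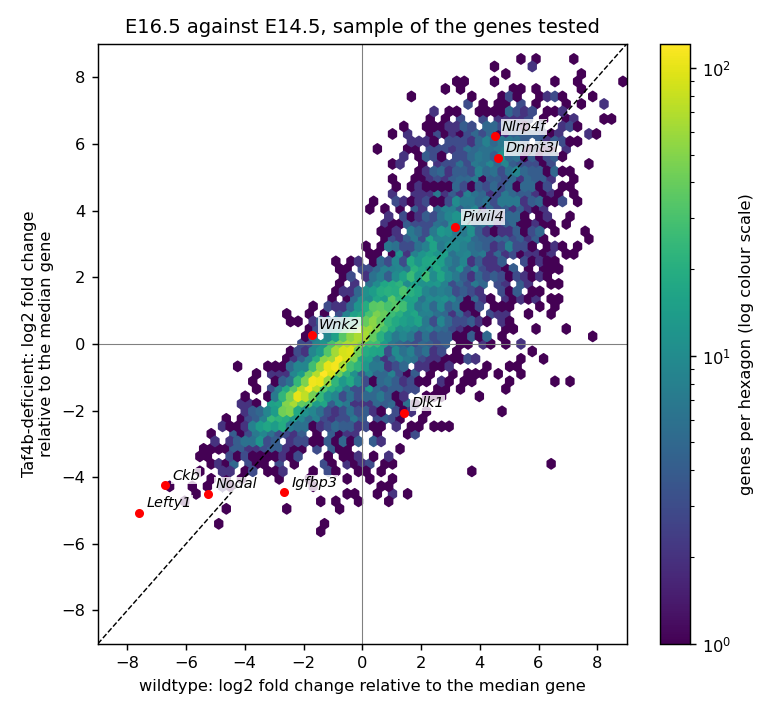
Log2 change from E14.5 to E16.5 relative to the median gene in wildtype (x axis) and deficient libraries (y axis), for an even sample of the genes tested, as hexagons coloured by gene number on a log scale, with the line of equal change dashed and 9 genes in red. The genes that fell in both had medians of -2.14 in wildtype and -1.63 in deficient libraries, and Dlk1 lies at 1.42 in wildtype and -2.07 in deficient libraries.

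The test of the difference itself called 558 genes (2.06%), 96 (0.354%) more positive and 462 (1.7%) more negative in the deficient libraries. The count rests on single libraries: leaving out E14.5 wildtype replicate 2 gave 0 calls by edgeR, with 5075 genes under 0.05 before adjustment, while leaving out E14.5 deficient replicate 4 gave 1819. In the 10-library set it was 4. It was 1 with only the deficient and wildtype libraries in the fit (4446 genes under 0.05 before adjustment), 0 with counts summed by litter (3007) and 0 with the replicate number as a block in libraries 1 to 4 (1066). It was also 0 when only the 3 E16.5 wildtype libraries with over 20 CPM of Rn7sk, a non-coding RNA, were used (3132 genes under 0.05 before adjustment). Rn7sk stood at 28 to 30.2 CPM in those 3 libraries, at 8.61 to 10.3 in the other 4 and at 13.1 to 41.4 in the E16.5 deficient libraries. In the E14.5 libraries it was lower, at 2.54 to 7.745 CPM in the deficient and 1.29 to 8.23 CPM in the wildtype group. The part of Rn7sk in the difference was not tested.

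By the rule for naming genes, only Wnk2, a kinase of the WNK family, qualified. It stood at 6.03, 6.69, 6.35 and 6.28 CPM at E14.5 and 8.16 to 11.3 CPM (median 9.29) at E16.5 in deficient libraries. Before the medians were subtracted it changed by 0.61 in deficient and -1.18 in wildtype libraries, a difference of 1.79 (adjusted p 0.0129). Etv4, a target of FGF signalling, went from 7.21, 33.9, 45.7 and 20.7 CPM to between 1.82 and 14.2 CPM (median 7.95) in deficient libraries. Its change before the medians were subtracted was -1.82 in deficient and -4.22 in wildtype libraries, a difference of 2.41 (adjusted p 0.0447). On the same scale the difference was called, listing it and then its adjusted p, for Lhx1 (2.46, 0.0464), Uhrf1 (1.20, 0.0463) and Trim28 (0.99, 0.0468), whose falls were smaller in the deficient libraries. It was also called for the collagen gene Col1a1 (-4.83, 0.0464), Dlk1 (-3.69, 0.0475), Sgce (-3.78, 0.0362) and Grb10 (-3.98, 0.0464), and these 4 genes were high in E14.5 deficient replicate 1. Without that library edgeR's test called 1 gene more positive, Wnk2 (adjusted p 0.0281), and 1 more negative. Etv4 was then not called (difference 2.08, adjusted p 0.22), and Lhx1, Uhrf1 and Trim28 were no longer called more positive.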

How the data were processed

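RNA sequencing libraries of sorted mouse prospermatogonia were compared between 2 ages. The deposited gene tables, 1 per age, hold integer counts per gene and library that the authors made, per the file names with featureCounts. The TPM values are the authors' own, per the file names from StringTie, scaled within each library. Trim Galore 0.5.0, HISAT2 2.1.0, SAMtools 1.9, StringTie 1.3.3b, Subread 1.6.2 and GRCm38 are listed without roles, per the submitters' processing notes. The strand setting, the annotation and the filters are not given in the sources used here, so a gene and an overlapping or antisense neighbour may share reads. TPM was used at E16.5 only and only to set levels of different genes side by side.

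The count tables of both ages were joined on the gene identifier (55536 genes). Counts were fitted in R 4.3.3 with edgeR 4.0.16 over all 32 libraries, with trimmed mean of M-values factors, filterByExpr by group, and edgeR's quasi-likelihood test, adjusted by Benjamini-Hochberg over the 27099 genes tested. Calls are at an adjusted p under 0.05, and "rose" and "fell" also ask for at least 1 log2 unit from the median gene. CPM uses the scaled totals. Taf4b was also tested with an exact permutation test on log2(CPM + 1). A floor of 3 counts per library, 0.0738 to 0.149 CPM at E14.5, was used for genes with no counts in a group, and covers counting error only. Library totals set the precision of low genes. The scripts were tested on simulated counts.

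Genes were named by a rule: Taf4b, the 12 rising and 12 falling genes with the largest change relative to the median gene, up to 5 of each direction for the difference of the age change, and members of the gene lists by role. Of the 12 falling genes, 1 is not reported here. The genes chosen by size had to be called, protein-coding, at an average log2 CPM of at least 3, with a proper gene symbol, and called in the same direction in the 10-library set. The lists held 453 written symbols, of which 451 were found, and further families taken by symbol. The libraries, lists and rule were chosen with earlier results of these data known. Promoter windows are from RefSeq (GRCm38.p6), matched by symbol, with the first start listed per gene.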

Additional observations from a re-analysis of the deposited data

Results flagged for a closer look

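In groups of 4 and 8 deficient libraries, 298 sets of values (genes named in the text and summed lists) were searched for a library far from the others, and 32 had one. The threshold used is one that about 1 in 20 groups would pass by chance, and these sets share libraries and genes. E14.5 deficient replicate 1 was the library in 26 of these sets.

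In that library the summed CPM was high for Leydig markers (5620, at most 192 in the other 3), interstitial markers (5570, at most 256), macrophage markers (154, at most 16.1), red blood cell markers (2200, at most 10.5) and the imprinted list (3230, at most 1230). It was low for the meiosis list (1040, at least 1890), the DNA methylation list (1860, at least 2600) and the spermatogonial stem cell list (1880, at least 3030). Single genes that stood out high there were Cyp17a1 (2220 CPM), Col1a1 (467 CPM), Igfbp3 (364 CPM), Ccnd2 (218 CPM), Dlk1 (279 CPM), Sgce (56.4 CPM), Grb10 (261 CPM), Myc (22.6 CPM), Tet3, a methylcytosine dioxygenase (44 CPM), and, at lower level, Stra8 (9.2 CPM), Sohlh1 (4.43 CPM), Lim2 (1.48 CPM), Nlrp4f (0.64 CPM) and Pgk2 (0.0246 CPM, with 0 in the other 3). Those that stood out low were Otx2, a homeobox gene of the Nodal list (11.2 CPM), Prdm14 (23.6 CPM), Gtf2e1 (74.4 CPM) and Dmrt1 (52 CPM).

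Other libraries stood apart for single values. Dnmt3c was at 8.28 CPM in E14.5 replicate 3 against at most 3.19 in the others, and Hrk at 0.438 CPM in E14.5 replicate 2 against at most 0.0991. Taf4b was at 123 CPM in E16.5 replicate 8 against at most 62.5, and Cdkn1b at 5.85 CPM in E16.5 replicate 2 against at most 4.2. Red blood cell markers summed to 4200 CPM in E16.5 replicate 1 against at most 1090, and Col1a1 was at 24.8 CPM there against at most 12.5.

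The change between ages differed between deficient and wildtype libraries in edgeR's test of the difference for 558 genes. Among the genes named, the difference on the log2 scale, before medians were subtracted, was 1.79 for Wnk2, 2.41 for Etv4, 1.20 for Uhrf1, 0.989 for Trim28 and 2.46 for Lhx1. It was -4.83 for Col1a1, -3.69 for Dlk1, -3.78 for Sgce and -3.98 for Grb10, the 4 of these genes that stood out high in E14.5 deficient replicate 1. Without that library 2 genes were called, and of these only Wnk2 was more positive.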

How the results depend on the processing

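Of 120 genes named, 106 were called, and 91 of these kept their direction and call under all 23 settings run for them. The 15 others lost the call at least once, and 3 of them, Ccnd2, Dlk1 and Col1a1, changed sign. Leaving out 1 library at a time gave -1.91 to 0.33 for Ccnd2, -2.54 to 1.86 for Dlk1, -4.15 to 2.26 for Col1a1, -2.21 to 2.28 for Cyp17a1, -0.95 to 2.22 for Sgce and -0.91 to 2.50 for Grb10, with the highest value without E14.5 deficient replicate 1 in each. In the 10-library set they were at 0.45, 1.85, 2.35, 2.43, 2.21 and 2.48. The replicate numbers do not pair the libraries: the correlations of same-numbered deficient libraries were 0.412, 0.131, -0.0863 and -0.184 for numbers 1 to 4. With the replicate number as a block, libraries 1 to 4 only, 9263 genes were called and 8009 also passed the 1 log2 rule, against 9960 and 7949 for the same libraries with no block (chosen after seeing the data). The block put Ccnd2 at 0.36, Dlk1 at 1.36 and Col1a1 at 1.86. Leaving out 1 library at a time gave 18096 to 19907 calls for the deficient age change (14481 to 16774 with the 1 log2 rule) and 19036 to 20158 for the wildtype age change.

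The count for the difference of the age change, 558, was the least stable. It was 860 with a mean of at least 10 counts, 1193 by DESeq2's Wald test, 1385 with shifted factors, 1 with only deficient and wildtype libraries in the fit, 4 in the 10-library set, 0 with counts summed by litter (3007 genes at an unadjusted p under 0.05), 0 with the replicate block (1066 unadjusted), and, chosen after seeing the data, 3 without both E14.5 libraries of 1 shared litter and 0 with Rn7sk-high wildtype libraries only. Leaving out 1 library gave 0 to 1819. Among E14.5 deficient libraries it was 2, 1208, 1694 and 1819 without replicates 1 to 4, and among E14.5 wildtype libraries 1045, 0, 5 and 4. Without E16.5 deficient replicates 1, 2, 3, 5, 6 and 7 it was 1088, 194, 348, 3, 4 and 8, and without E16.5 wildtype replicates 2, 4, 5, 6 and 7 it was 350, 4, 2, 2 and 267. The cause was not tested.

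Without E14.5 deficient replicate 1 the Taf4b difference was 0.512 and missed the threshold. List medians that moved are given as the range over leaving out E14.5 replicate 1 or E16.5 replicate 8, then in the 10-library set; in each, the value far from that of all 12 libraries is the one without E14.5 replicate 1. The list medians were, for germ cell identity -0.24 to 0.14 and -0.19, for pluripotency -2.69 to -2.06 and -2.67, for meiosis 0.0319 to 0.35 and 0.0522, for mitotic proliferation -2.86 to -2.30 and -2.81, for chromatin modifiers -1.14 to -0.79 and -1.13, for TFIID -0.79 to -0.23 and -0.76 and for imprinted -0.98 to 0.39 and 0.51. They were, for glycolysis -1.48 to -1.07 and -1.49, for Sertoli cell markers -2.53 to -1.42 and -1.31, for Leydig cell markers -1.58 to 2.28 and 2.40, for interstitial markers -3.86 to 0.71 and 0.77, for endothelial cell markers -1.76 to 1.54 and 1.47, for red blood cell markers 0.63 to 6.47 and 6.52 and for ribosomal protein genes -0.91 to -0.47 and -0.92. The rest were, for mitochondrially encoded genes 0.84 to 1.28 and 0.95, for nuclear respiratory genes -1.39 to -0.92 and -1.38, for proteasome subunits -1.64 to -1.15 and -1.62, for Rhox genes -0.0885 to 0.58 and -0.0535 and for Zfp genes -1.14 to -0.83 and -1.11. The share of wildtype-higher genes also called higher was 84.6% in the 10-library set and 82.2% for genes at least 1 log2 unit from the median, and that of wildtype-lower genes 84.1% by the latter rule.

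Age cannot be told apart from litter and collection date. Low-level genes, where most rises lie, rest on few counts. Depth differed between ages, and thinning to the lowest total left 7909 rising and 5753 falling genes of 25282 tested.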
